A study of Homo sapiens with 18 samples.

Results

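Fibroblast growth factor (FGF) ligands and their receptor tyrosine kinases were followed through the patterning of human neural ectoderm, as messenger RNA levels of 10 genes among the 37550 rows of an expression table. The genes were taken by symbol: the ligands FGF2, FGF3, FGF8, FGF17, FGF18 and FGF19 and the receptors FGFR1, FGFR2, FGFR3 and FGFR4. All 10 had a row, and all 10 were among the 17033 genes tested, which needed at least 1 TPM (a relative transcript abundance scaled by transcript length and by the total of the library) in at least 2 libraries. FGF3 passed that filter only through its 2 libraries of 1 group. The cells were H1, an established wild-type human pluripotent stem cell line, in 9 groups of 2 samples that the labels call distinct biological replicates. Undifferentiated cells (hPSC) were taken at day 0. On day 1 all other cells received inhibitors of TGF-beta and BMP receptors, the porcupine inhibitor C59 and the MEK inhibitor trametinib at 250 nM. On day 2, cells made into anterior neural ectoderm (aNE) received C59 at 1 µM and the TGF-beta and BMP receptor inhibitors. Cells made into posterior neural ectoderm (pNE) received in that step the same receptor inhibitors, FGF2 protein at 20 ng/mL, TTNPB, which activates retinoic acid receptors, at 50 nM and the tankyrase inhibitor XAV939 at 1 µM. Both day-2 media held thiazovivin, and both populations were collected at day 2. The day-4 groups add a letter for the medium to the name of their origin: aNE_T and pNE_T for forebrain medium, aNE_M and pNE_M for midbrain medium, and aNE_H and pNE_H for hindbrain medium. The forebrain medium of day 3 held FGF2 at 20 ng/mL, XAV939 at 1 µM and a BMP receptor inhibitor, and the rest of it and the other media are not analysed here. All groups came from 1 cell line. Day-2 groups were plated at 37500 cells per cm2, day-4 groups of aNE origin at 75000 and day-4 groups of pNE origin at 150000, so origin and plating density at day 4 cannot be told apart. Medium, time and plating density all change between day 2 and day 4, so they cannot be told apart in any change between these days.

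FGF ligands are secreted proteins that bind FGF receptors together with heparan sulfate, and the activated receptors signal through adaptors and RAS to the kinase ERK. ERK in turn switches on its own inhibitors, among them the Sprouty and DUSP proteins, and transcription factors of the ETV family. In the vertebrate embryo FGF8, FGF17 and FGF18 form a subfamily known from the anterior border of the forebrain and from the midbrain-hindbrain boundary, where they act as organizer signals. FGF2 is used in culture to maintain pluripotent cells, FGF19 acts in many settings as a hormone of bile acid metabolism and is also made in the embryonic brain, and FGF3 is known from the hindbrain and inner ear. The FGF2 given to the cells was protein, whereas the table holds the cells' own transcripts.

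RefSeq promoter sequences (GRCh38.p14, 250 bases before to 50 bases after each start) were at hand for 6 of the 10 genes, namely FGF2, FGF3, FGF18, FGFR2, FGFR3 and FGFR4. They were searched on both strands for the ETS core CCGGAA, the TCF/LEF motif CTTTGAT and the retinoic acid receptor core sites AGGTCA and GGTTCA, none of which contains another. Of all 35116 promoters in that table, 17.2% held CCGGAA, 2.62% held CTTTGAT, 13.8% held AGGTCA and 8.62% held GGTTCA. Among the FGF genes there were 2 matches. CTTTGAT lay in the FGF18 promoter (chr5:171419397-171419696, plus strand) with its first base at -174 from the start, and AGGTCA lay in 1 of 5 FGFR2 promoters (chr10:121594209-121594508, minus strand) at -57. The other windows held none of the 4 motifs. These 2 sequences are shown with the match in capitals. The FGFR3 promoter (chr4:1793043-1793342, plus strand) is shown because its gene had the widest range of group means among the receptors on a log2 scale, and the first FGFR4 promoter (chr5:177086665-177086964, plus strand) because that receptor moved in opposite directions in cells of different origin. The median GC content over all promoters was 58.7%, against 86.3% for FGFR3, 78.7% for the first FGFR4 promoter, 77.7% for FGF18 and 50.7% for the FGFR2 promoter with the match. A match is a string of letters and not a bound site.
FGF18: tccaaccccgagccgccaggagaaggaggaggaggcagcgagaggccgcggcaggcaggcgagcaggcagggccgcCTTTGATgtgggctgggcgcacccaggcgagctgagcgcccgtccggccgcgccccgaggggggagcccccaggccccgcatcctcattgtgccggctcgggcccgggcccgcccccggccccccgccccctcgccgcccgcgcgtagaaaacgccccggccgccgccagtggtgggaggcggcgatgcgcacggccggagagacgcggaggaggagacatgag
FGFR2, promoter with the match: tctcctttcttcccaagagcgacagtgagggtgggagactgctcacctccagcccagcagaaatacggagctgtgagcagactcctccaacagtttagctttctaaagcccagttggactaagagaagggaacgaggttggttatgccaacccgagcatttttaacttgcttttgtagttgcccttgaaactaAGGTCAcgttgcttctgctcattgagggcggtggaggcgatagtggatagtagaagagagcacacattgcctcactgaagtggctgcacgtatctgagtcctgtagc
FGFR3: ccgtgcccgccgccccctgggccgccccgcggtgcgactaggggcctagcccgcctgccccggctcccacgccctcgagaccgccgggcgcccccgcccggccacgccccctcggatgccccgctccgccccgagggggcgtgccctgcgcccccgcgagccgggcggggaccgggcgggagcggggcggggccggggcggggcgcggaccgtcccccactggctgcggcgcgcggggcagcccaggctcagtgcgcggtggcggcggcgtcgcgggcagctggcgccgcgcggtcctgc
FGFR4, first promoter: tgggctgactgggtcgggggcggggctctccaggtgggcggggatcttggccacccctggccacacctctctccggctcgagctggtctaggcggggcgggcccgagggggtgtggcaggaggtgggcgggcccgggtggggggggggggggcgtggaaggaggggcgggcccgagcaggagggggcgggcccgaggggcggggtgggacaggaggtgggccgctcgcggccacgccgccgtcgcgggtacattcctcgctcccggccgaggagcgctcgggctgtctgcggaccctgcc

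Replicate libraries agreed closely: Pearson's r across the tested genes was 0.982 to 0.987 between replicates and 0.879 to 0.968 between groups, and each of the 18 libraries was closest to its own replicate. TPM values carry no read depth, so it is unknown here. The regional labels were checked against marker lists, whose levels were summed. The forebrain list came to 821 TPM in aNE_T and 44.5 TPM in pNE_T. The midbrain list came to 343 TPM in aNE_M and 39.5 TPM in pNE_M, where EN1, a defining midbrain gene, was listed at 0 in both libraries. The hindbrain list came to 97.0 TPM in aNE_H and 700 TPM in pNE_H. In aNE_H 3 of its 6 genes were listed at 0 in both libraries, against 0 of 6 in pNE_H. Markers of the labelled region were thus abundant in aNE_T, aNE_M and pNE_H and lower in pNE_T, pNE_M and aNE_H. In these last groups the list of another region stood higher. The hindbrain list came to 346 TPM in pNE_T and 541 TPM in pNE_M, and the forebrain list to 125 TPM in aNE_H. In bulk RNA, fewer cells of a type and less RNA per cell cannot be told apart, and this holds for every level below.

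FGF8, known from the anterior forebrain border and from the midbrain-hindbrain boundary, was high in 1 group, aNE-derived cells in forebrain medium. Its level was 77.5 and 64.9 TPM in the 2 aNE_T libraries. It was 9.83 and 5.36 TPM in aNE_H, 4.69 and 3.63 TPM in aNE, and 2.50 and 2.42 TPM in aNE_M. The libraries of these aNE groups did not overlap with each other, and their order of levels ran from aNE_T down to aNE_M. In cells of pNE origin FGF8 never exceeded 1.71 TPM, with 0.0895 and 1.41 TPM in pNE, 1.19 and 1.71 TPM in pNE_T, 0.390 and 0.0899 TPM in pNE_M and 0 and 0.240 TPM in pNE_H. The hPSC libraries held 0.631 and 0.839 TPM, within the range of the pNE libraries. Differences between groups are given on the log2(TPM + 1) scale, with the SE and the Benjamini-Hochberg adjusted p of limma over all tested genes, and a gene was called where that p was under 0.05 and the difference was at least 1 in size. From aNE to aNE_T, FGF8 rose by 3.81 ± 0.33 (adjusted p = 2.19e-06), whereas the difference from pNE to pNE_T was 0.59 ± 0.33 (adjusted p = 0.205). The difference between these responses was itself past the threshold, at -3.22 ± 0.47 (adjusted p = 0.000427). FGF8 was lower in pNE_T than in aNE_T, by a difference of -4.88 ± 0.33 (adjusted p = 1.98e-07), and also in the midbrain medium at -1.49 ± 0.33 and the hindbrain medium at -2.90 ± 0.33. With a pseudocount of 0.1 the difference between the forebrain responses was -2.56 and no longer passed the threshold (adjusted p = 0.21), while the midbrain difference lost its call without the second pNE_M library (adjusted p = 0.0675). At day 2 FGF8 was higher in aNE than in hPSC by 1.57 ± 0.33 and lower in pNE than in aNE at -1.66 ± 0.33, the latter losing its call in a fit of these groups alone (adjusted p = 0.179).

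**Figure D1:**
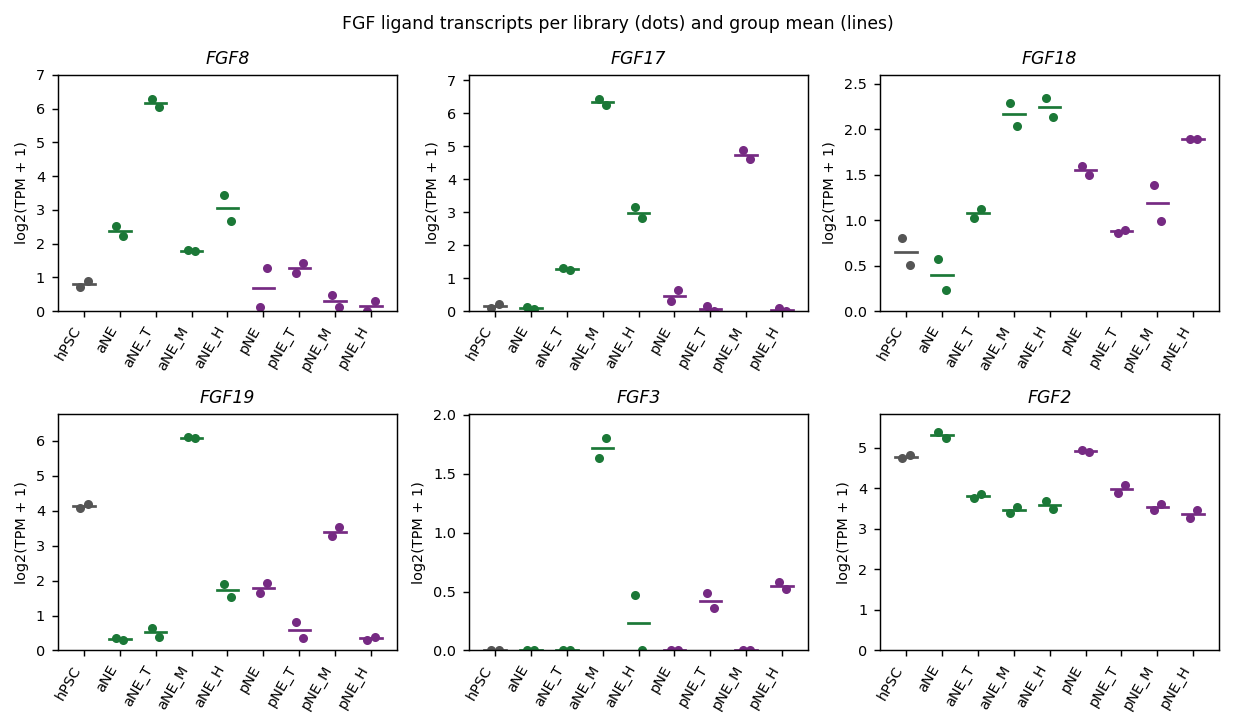
Levels of the 6 FGF ligand transcripts as log2(TPM + 1) on the vertical axis, each panel with its own scale, in the 9 groups on the horizontal axis. Dots are libraries, lines are group means of 2, green marks aNE and its derivatives and purple pNE and its derivatives. FGF8 stands highest in aNE_T, FGF17 in aNE_M and then pNE_M, and FGF19 in aNE_M and then hPSC.

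FGF17, a close relative of FGF8 known from the midbrain-hindbrain boundary, was highest in the midbrain medium in cells of both origins. Its level was 86.1 and 74.3 TPM in aNE_M and 28.7 and 23.2 TPM in pNE_M. It was 7.99 and 6.02 TPM in aNE_H and 1.46 and 1.39 TPM in aNE_T. In the other 10 libraries it lay between 0 and 0.548 TPM, so that these 4 groups stood above all others without overlap. The rise from aNE to aNE_M was 6.24 ± 0.18 (adjusted p = 3.77e-11), the thirteenth in size over all tested genes. The rise from pNE to pNE_M was 4.28 ± 0.18 (adjusted p = 1.27e-09), and the responses differed at -1.96 ± 0.25 (adjusted p = 0.00015). From aNE to aNE_H, FGF17 rose by 2.89 ± 0.18 (adjusted p = 8.02e-08). The 2 pNE_H libraries held 0.0580 and 0 TPM, and the responses in that medium differed at -3.32 ± 0.25 (adjusted p = 1.45e-06). Between the origins FGF17 was lower in cells that came from pNE in each medium, at -1.20, -1.59 and -2.95 in forebrain, midbrain and hindbrain medium.

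FGF19, a ligand that signals mainly through FGFR4, was highest in aNE_M, followed by undifferentiated cells. Its level was 67.5 and 66.8 TPM in aNE_M and 15.9 and 17.3 TPM in hPSC. It was 8.63 and 10.6 TPM in pNE_M, 2.11 and 2.80 TPM in pNE and 2.75 and 1.88 TPM in aNE_H. Between 0.235 and 0.770 TPM were seen in the 8 libraries of aNE, aNE_T, pNE_T and pNE_H. The first 3 groups did not overlap with each other or with the rest, whereas pNE and aNE_H overlapped. FGF19 fell from hPSC to day 2 at -3.80 ± 0.19 in aNE (adjusted p = 9.48e-09) and at -2.35 ± 0.19 in pNE (adjusted p = 9.36e-07), comparisons that share the hPSC libraries. The day-2 level was higher in pNE, at 1.44 ± 0.19 above aNE (adjusted p = 0.000226). In midbrain medium it rose by 5.75 ± 0.19 from aNE (adjusted p = 1.71e-10) and by 1.62 ± 0.19 from pNE (adjusted p = 2.53e-05), and the responses differed at -4.14 ± 0.27 (adjusted p = 4.24e-07). In hindbrain medium the directions were opposite, with a rise of 1.38 ± 0.19 in aNE-derived cells and a fall at -1.43 ± 0.19 in pNE-derived cells, and the responses differed at -2.81 ± 0.27 (adjusted p = 1.26e-05). In forebrain medium FGF19 was not called in aNE-derived cells (0.18 ± 0.19, adjusted p = 0.539) and fell at -1.19 ± 0.19 in pNE-derived cells, a call lost without the second pNE_T library (-0.96) and in a fit of these groups alone (adjusted p = 0.0597).

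The aNE_M libraries with the highest FGF17 and FGF19 also held the highest summed levels of mesendoderm and neural crest markers among the 9 groups. The midbrain and neuron lists were highest there too, at means of 343 and 536 TPM. The next group means of these lists were 39.5 TPM in pNE_M and 395 TPM in aNE. The neuron list came to 231 TPM in hPSC, and its members ELAVL4 and NEUROD1 did not exceed 1.13 TPM in any library. WNT1 of the midbrain list did not exceed 0.343 TPM. The 6 surface ectoderm markers summed to 503 ± 16 TPM in aNE_M, within the range of 301 to 1097 TPM over all group means. Of this list TP63, KRT5 and KRT14 did not exceed 0.713 TPM in any library, and its sum was 646 TPM in hPSC. The list of 8 mesendoderm and mesoderm markers summed to 98.0 and 117 TPM in aNE_M, against 3.93 to 32.0 TPM in the libraries of the other 8 groups. MIXL1 led it with 86.5 ± 12 TPM (SD, n = 2), followed by EOMES at 16.5 ± 0.50 TPM, while SOX17 was listed at 0 in both libraries and TBXT stood at 3.36 ± 0.91 TPM. The 6 neural crest markers summed to 138 ± 6.3 TPM in aNE_M, of which PAX3 made 125 ± 6.8 TPM, so that sum was mostly PAX3. They summed to 92.7 ± 4.4 TPM in aNE_H and 80.9 ± 8.4 TPM in pNE_M. Whether cells with any of these markers contributed to the FGF17 and FGF19 levels was not tested.

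FGF18, the third member of the FGF8 subfamily, stayed at low levels in all groups, with a highest value of 4.08 TPM. Its levels were 4.08 and 3.40 TPM in aNE_H, 3.89 and 3.09 TPM in aNE_M, 2.71 and 2.70 TPM in pNE_H and 2.03 and 1.83 TPM in pNE. The groups aNE_H and aNE_M overlapped, and pNE_H and pNE lay below them in that order without overlap. Levels of 1.61 and 0.983 TPM in pNE_M, 1.03 and 1.18 TPM in aNE_T, 0.808 and 0.860 TPM in pNE_T, 0.745 and 0.419 TPM in hPSC and 0.488 and 0.171 TPM in aNE made up the rest. At day 2 FGF18 stood 1.15 ± 0.20 higher in pNE than in aNE (adjusted p = 0.00147), a call lost in a fit of those groups alone (adjusted p = 0.0745) and without the second aNE library (0.98). It rose from aNE in midbrain medium by 1.76 ± 0.20 and in hindbrain medium by 1.84 ± 0.20. No response of pNE was called. Its difference in forebrain medium, -0.67 ± 0.20, was past the adjusted p (0.0181) and under the size for a call. The responses of the origins differed in all 3 media, at -1.35 ± 0.28, -2.12 ± 0.28 and -1.50 ± 0.28 for forebrain, midbrain and hindbrain medium (adjusted p = 0.00538, 0.000165 and 0.00226). At these levels the differences of log2(TPM + 1) understate the change.

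FGF3 was listed at 0 in 11 of the 18 libraries. It reached 2.11 and 2.50 TPM in aNE_M, and its other values were 0.387 TPM in 1 aNE_H library, 0.398 and 0.282 TPM in pNE_T and 0.496 and 0.434 TPM in pNE_H. The aNE_M libraries lay above all others, and both pNE_M libraries were listed at 0. Since FGF3 entered the tests only through aNE_M, no test of its level there is given. FGF3 and FGF19 lie on the same strand of chromosome 11 with 105326 bases between them, in GENCODE release 29. FGF4, which did not pass the filter for testing, lies between them on that strand.

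FGF2, whose protein was a supplement in some of the media, was highest at day 2 and lowest at day 4. Its transcript stood at 41.0 and 37.0 TPM in aNE, above pNE with 29.5 and 28.5 TPM and hPSC with 25.6 and 27.0 TPM, and these groups did not overlap. At day 4 the 12 libraries held between 8.58 and 15.8 TPM, all below the earlier groups. From aNE it fell at -1.51 ± 0.12, -1.86 ± 0.12 and -1.73 ± 0.12 in forebrain, midbrain and hindbrain medium (adjusted p = 7.29e-07, 5.83e-08 and 1.83e-07). From pNE it fell at -1.37 ± 0.12 in midbrain and -1.54 ± 0.12 in hindbrain medium, and its difference in forebrain medium, -0.93 ± 0.12, was past the adjusted p (4.76e-05) and under the size for a call. The pNE cells, which had received FGF2 protein, differed from aNE at -0.41 ± 0.12 (adjusted p = 0.0323), also under that size. No comparison of origins within a day-4 medium passed the adjusted p for FGF2, with differences between -0.23 and 0.17. FGF2 overlaps NUDT6, a gene on the opposite strand, over 9540 bases, and whether the quantification used strand is not given in the sources used here.

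Added together, the 6 ligand transcripts came to 166 ± 8.3 TPM (SD, n = 2) in aNE_M and 87.2 ± 8.4 TPM in aNE_T, against 12.9 ± 1.2 TPM in pNE_H, the lowest of the 9 groups. FGF8 made up 81.5% ± 2.4 of the sum in aNE_T. FGF17 made up 48.4% ± 2.6 and FGF19 40.6% ± 1.8 of it in aNE_M. In pNE_M FGF17 made up 54.3% ± 5.5. FGF2 made up 84.0% ± 4.0 in pNE, 82.1% ± 2.0 in pNE_T and 72.1% ± 1.5 in pNE_H, where no other ligand of the 6 exceeded 2.80, 1.71 and 2.71 TPM.

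Receptor transcripts were more abundant than ligand transcripts in every group, and the sums of the receptors, though not FGFR4, were highest at day 2. FGFR1, the receptor most widely expressed in early embryonic cells, led in all 9 groups with 63.3% to 84.4% of the receptor sum. Its level was 248 and 261 TPM in hPSC, and at day 2 it was 739 and 696 TPM in aNE, with 589.7 and 692 TPM in pNE. At day 4 it was 454 and 446 TPM in aNE_T, 215 and 236 TPM in aNE_M and 225 and 201 TPM in aNE_H. In cells of pNE origin it was 475 and 491 TPM in pNE_T, 249 and 243 TPM in pNE_M and 513 and 452 TPM in pNE_H. Both day-2 groups lay above all others, pNE_T, pNE_H and aNE_T formed a middle group, in which pNE_H overlapped both others, and hPSC, pNE_M, aNE_M and aNE_H were lowest. From hPSC, FGFR1 rose by 1.49 ± 0.09 on the way to aNE (adjusted p = 3.31e-08) and by 1.32 ± 0.09 on the way to pNE (adjusted p = 9.7e-08). It fell in midbrain medium at -1.67 ± 0.09 from aNE and at -1.37 ± 0.09 from pNE. In hindbrain medium it fell at -1.75 ± 0.09 from aNE, while the difference from pNE was -0.41 ± 0.09, and these responses differed by 1.34 ± 0.12 (adjusted p = 6.88e-06). FGFR1 was accordingly higher in pNE_H than in aNE_H by 1.18 ± 0.09 (adjusted p = 4.84e-07), and in the other media no difference between the origins was called.

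**Figure D2:**
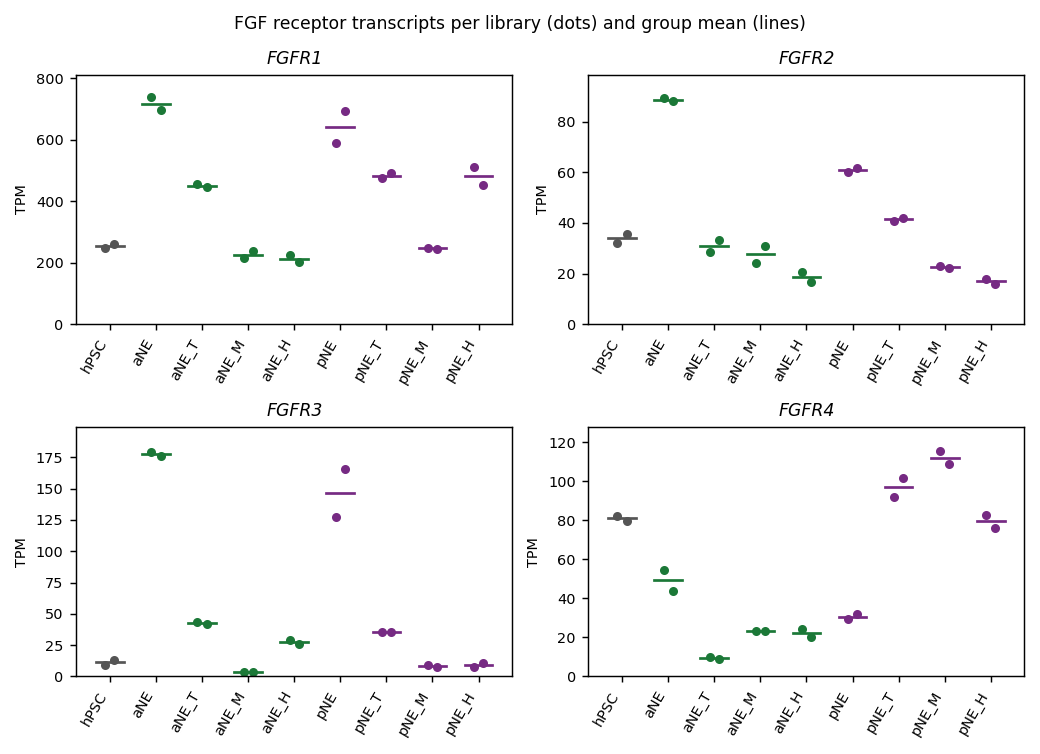
Levels of the 4 FGF receptor transcripts in TPM on linear vertical axes, each panel with its own scale, in the 9 groups on the horizontal axis, with dots for libraries and lines for means of 2 (green, aNE and its derivatives; purple, pNE and its derivatives). FGFR1, FGFR2 and FGFR3 are highest in aNE and pNE, whereas the pNE-derived day-4 groups of FGFR4 lie between 76.2 and 115 TPM and the aNE-derived ones between 8.85 and 24.4 TPM.

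FGFR3, a receptor known from neural progenitors and growth plate cartilage, showed the largest differences among the receptors between day 2 and both hPSC and day 4, except from aNE to aNE_T, where FGFR4 fell further. Its level was 8.98 and 13.5 TPM in hPSC, and at day 2 it was 179 and 176 TPM in aNE, with 128 and 166 TPM in pNE. It then stood at 43.6 and 42.0 TPM in aNE_T, 35.9 and 35.7 TPM in pNE_T and 29.4 and 25.6 TPM in aNE_H. The lowest levels were 7.89 and 10.8 TPM in pNE_H, 8.96 and 7.73 TPM in pNE_M and 3.47 and 3.81 TPM in aNE_M. The day-2 libraries did not overlap with any other group, and aNE_M lay below all others. The rise from hPSC was 3.89 ± 0.18 for aNE (adjusted p = 3.42e-09) and 3.60 ± 0.18 for pNE (adjusted p = 6.82e-09). It fell in all 3 media from both origins, at -2.03, -5.27 and -2.65 from aNE and at -1.99, -3.97 and -3.84 from pNE for forebrain, midbrain and hindbrain medium, each with an SE of 0.18. The responses differed at 1.30 ± 0.25 in midbrain medium (adjusted p = 0.0036) and at -1.19 ± 0.25 in hindbrain medium (adjusted p = 0.00553), the latter losing its call without the second pNE library (-0.998) or the first pNE_H library (-0.98). FGFR3 was lower in pNE_H than in aNE_H at -1.47 ± 0.18 (adjusted p = 4.79e-05), a call lost in a fit of these groups alone (adjusted p = 0.0554). Its difference between pNE_M and aNE_M, 1.01 ± 0.18 (adjusted p = 0.00133), was at the edge of the call and lost it with quantile normalization (0.96), without the first aNE_M (0.95) or first pNE_M library (0.91) and in a fit of these groups alone (adjusted p = 0.0618).

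FGFR2, whose splice forms serve epithelial and mesenchymal cells, was also highest at day 2. It stood at 89.4 and 88.2 TPM in aNE, with pNE at 60.1 and 61.7 TPM, then 40.7 and 42.2 TPM in pNE_T and 32.0 and 35.8 TPM in hPSC. In the other 10 libraries, all of day 4, it lay between 15.8 and 33.1 TPM. The groups aNE, pNE and pNE_T did not overlap with others, and the hPSC libraries overlapped with aNE_T. FGFR2 rose from hPSC by 1.37 ± 0.13 in aNE (adjusted p = 2.33e-06), and the difference in pNE, 0.83 ± 0.13 (adjusted p = 0.000181), was under the size for a call. It fell from aNE at -1.50 ± 0.13, -1.65 ± 0.13 and -2.20 ± 0.13 in forebrain, midbrain and hindbrain medium, and from pNE at -1.40 ± 0.13 in midbrain and -1.79 ± 0.13 in hindbrain medium. No comparison of origins and no interaction was called for FGFR2. Past the adjusted p and under the size for a call were pNE against aNE (-0.54 ± 0.13, adjusted p = 0.0118) and pNE_T against aNE_T (0.41 ± 0.13, adjusted p = 0.0319). The difference between the forebrain responses, 0.95 ± 0.18 (adjusted p = 0.00268), was also under that size.

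FGFR4, the receptor best known as a partner of FGF19 in liver, was the receptor whose level divided the day-4 groups by origin. In pNE-derived cells it was 91.9 and 102 TPM in forebrain medium, 115 and 109 TPM in midbrain medium and 82.9 and 76.2 TPM in hindbrain medium. In aNE-derived cells it was 9.75 and 8.85 TPM in forebrain medium, 23.3 and 23.2 TPM in midbrain medium and 24.4 and 20.1 TPM in hindbrain medium. All 6 pNE-derived libraries lay above all 6 aNE-derived ones. The day-2 order was the other way, with 54.6 and 43.7 TPM in aNE and 29.3 and 32.1 TPM in pNE, below the 82.3 and 79.9 TPM of hPSC. The fall from hPSC was called in pNE at -1.38 ± 0.11 (adjusted p = 9.18e-07), and the difference of aNE, -0.72 ± 0.11 (adjusted p = 0.000237), was under the size for a call.

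FGFR4 rose from pNE by 1.63 ± 0.11, 1.84 ± 0.11 and 1.35 ± 0.11 in forebrain, midbrain and hindbrain medium (adjusted p = 2.31e-07, 5.05e-08 and 9.81e-07). It fell from aNE at -2.28 ± 0.11 in forebrain medium (adjusted p = 1.23e-08). The falls in midbrain and hindbrain medium, -1.04 ± 0.11 and -1.11 ± 0.11, lost their call without the first aNE library (-0.88 and -0.95), and the hindbrain fall also without the second aNE_H library (-0.97). The responses of the origins differed by 3.90 ± 0.16, 2.88 ± 0.16 and 2.45 ± 0.16 (adjusted p = 7.13e-09, 9.38e-08 and 4.05e-07), calls kept with each library left out in turn and under each other setting tried. Between the origins FGFR4 was higher in pNE_T than in aNE_T by 3.25 ± 0.11, in pNE_M than in aNE_M by 2.22 ± 0.11 and in pNE_H than in aNE_H by 1.80 ± 0.11.

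The 4 receptors summed to 381 ± 14 TPM in hPSC, and the day-2 sums were 1034 ± 41 TPM for aNE and 879 ± 103 TPM for pNE. By day 4 it was 533 ± 4.3 TPM in aNE_T, 280.2 ± 20 TPM in aNE_M and 281 ± 25 TPM in aNE_H. In pNE-derived cells it was 657 ± 19 TPM in forebrain, 389 ± 9.99 TPM in midbrain and 588 ± 47 TPM in hindbrain medium. The composition changed along with the sum. FGFR4 made up 28.8% ± 0.42 of it in pNE_M and 1.74% ± 0.10 in aNE_T, and FGFR3 made up 17.2% ± 0.49 in aNE and 1.30% ± 0.0065 in aNE_M. The group with the most ligand transcript, aNE_M, was among the 2 groups with the least receptor transcript.

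**Figure D3:**
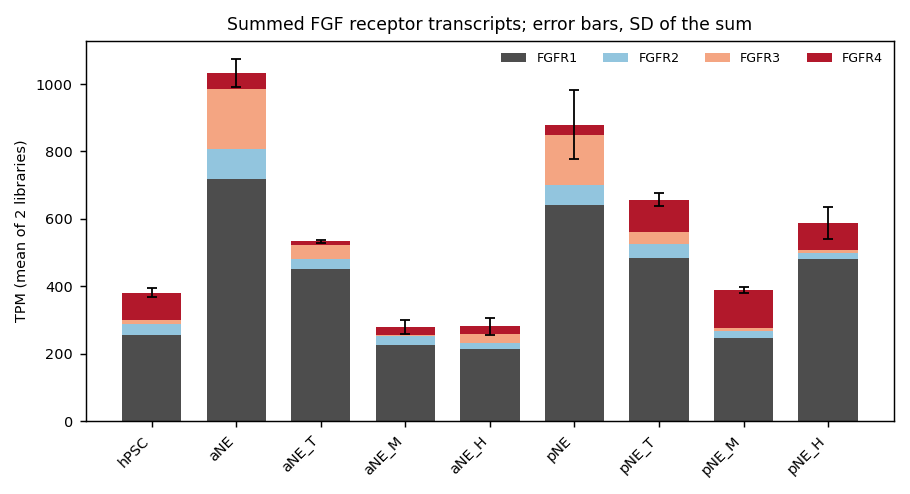
Stacked mean TPM of FGFR1, FGFR2, FGFR3 and FGFR4 on a vertical axis that starts at 0, for the 9 groups of 2 libraries, with the SD of the sum as error bars. The sum is highest in aNE, at 1034 TPM, and is 879 TPM in pNE, and the FGFR4 part is widest in the pNE-derived groups of day 4.

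Counted over the 10 genes, 5 were called between aNE and hPSC (FGF19 lower, the others higher), where 13.5% of all tested genes were called. Between pNE and hPSC 4 were called, with 12.9% of all tested genes. Between pNE and aNE 3 were called (FGF18 and FGF19 higher, FGF8 lower), with 3.85% of all tested genes, and the fit of these groups alone called 1. In forebrain medium 3 of 10 differed between the origins against 7.77% of all tested genes, in midbrain medium 6 against 5.74%, and in hindbrain medium 6 against 6.83%. The ligand calls were all lower in pNE-derived cells and the FGFR4 calls all higher. On the way from aNE, 6 changed in forebrain medium against 9.03%, 9 in midbrain medium against 12.0% and 8 in hindbrain medium against 10.1%. On the way from pNE, 3 changed in forebrain medium against 10.2%, 7 in midbrain medium against 12.7% and 5 in hindbrain medium against 12.3%. With a pseudocount of 0.1 the count in forebrain medium from pNE was 6. Between the media within aNE origin, 7 were called for aNE_M against aNE_T (10.1% of all tested genes), 6 for aNE_H against aNE_T (6.60%) and 5 for aNE_H against aNE_M (4.92%). Within pNE origin 3 were called for pNE_M against pNE_T (8.60%), 4 for pNE_H against pNE_T (5.03%) and 2 for pNE_H against pNE_M (5.99%). The responses of the origins differed for 5 of 10 in forebrain medium against 7.14% of all tested genes, 6 in midbrain medium against 7.02% and 6 in hindbrain medium against 7.83%. FGF3 is among the genes called in the midbrain counts that involve aNE_M, the group that brought it into the tests. The 3 responses of an origin share its day-2 libraries, and each difference between responses contains the day-2 difference between the origins.

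**Figure D4:**
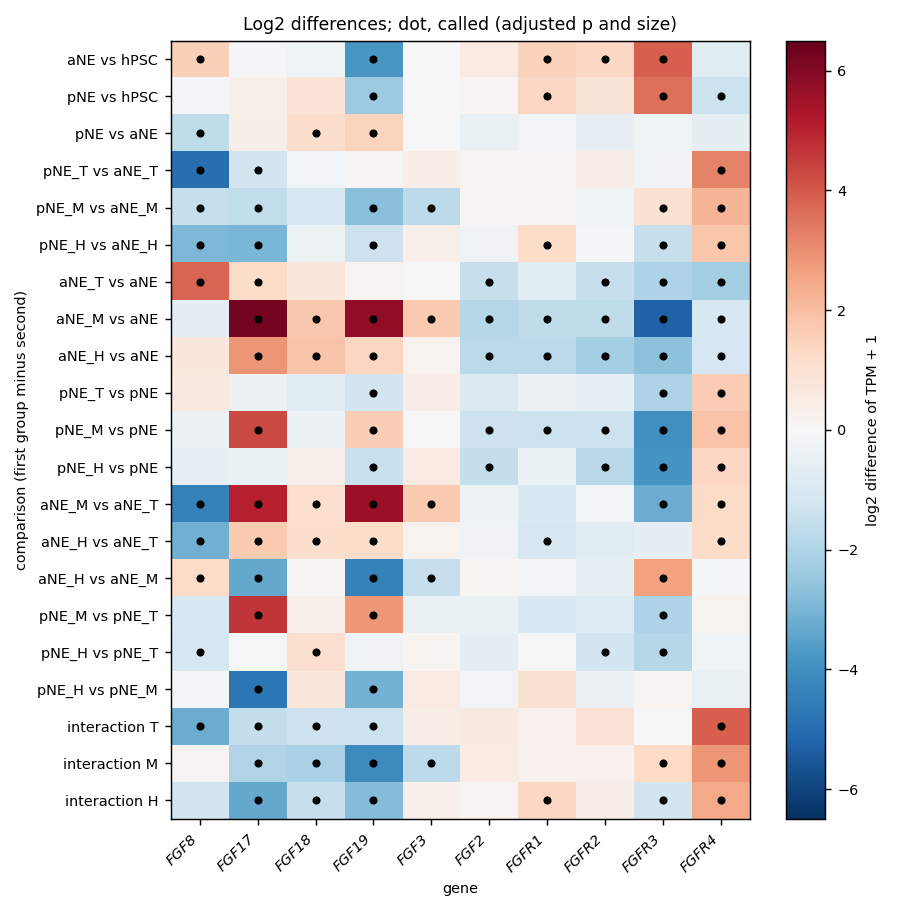
Differences on the log2(TPM + 1) scale by colour for the 10 genes (horizontal) in 21 comparisons (vertical), first group minus second, with a black dot where a difference was called. Interaction rows are the change from pNE minus the change from aNE in the forebrain (T), midbrain (M) or hindbrain (H) medium, where FGFR4 is positive in all 3 rows and FGF17, FGF18 and FGF19 are negative.

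Other genes with the pattern of an FGF gene were sought by Pearson's r over the 18 libraries on the log2 scale, among 2509 genes with a highest group mean of at least 5 TPM and a span of group means of at least 2. These libraries share their groups, so r is a description. Close to FGF8 were TENM3 (r = 0.955) and LDLRAD3 (0.938). Closest to FGF17 were DMTN (0.954), OLFM3 (0.952) and SP7 (0.952). DMTN is the next gene on chromosome 8, on the same strand and with 185 bases between it and FGF17 in GENCODE release 29, and its mean was 43.1 TPM in aNE_M and 11.1 TPM in pNE_M. PIK3AP1 (0.953) was closest to FGF19, PRODH (0.963) to FGFR2, ARHGEF4 (0.941) to FGFR3 and S100A16 (0.921) to FGFR4. FGF2, FGF3, FGF18 and FGFR1 did not span enough for this search.

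Among the 12 other secreted ligands 6 were tested. FGF9, a ligand with known roles in lung and gonad development, was higher in pNE-derived cells in every medium, with 7.43 and 7.24 TPM in pNE_T against 1.83 and 1.66 in aNE_T, 15.5 and 14.0 in pNE_M against 4.12 and 5.35 in aNE_M, and 16.7 and 13.7 in pNE_H against 2.53 and 0.682 in aNE_H. These groups did not overlap, and the differences were 1.60 ± 0.42, 1.47 ± 0.42 and 2.73 ± 0.42 (adjusted p = 0.0141, 0.028 and 0.000356), opposite in sign to those of FGF17. FGF16 was 6.90 and 5.43 TPM in pNE and 1.15 and 0.791 TPM in aNE, a difference of 1.86 ± 0.20 (adjusted p = 3.26e-05), and was listed at 0 in all 4 libraries of pNE_T and pNE_M. In the co-receptor list KL and KLB did not exceed 1.05 TPM in any library. Only FGFRL1 of that list, a receptor without a kinase domain, was tested. It was 54.2 ± 0.86 TPM in aNE_T, 54.0 ± 1.3 TPM in pNE_T and 58.7 ± 2.7 TPM in pNE_H, against 11.4 to 29.9 TPM in the other groups.

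Of the 6 tested extracellular modulators, 1 was called between pNE and aNE, where 3.85% of all tested genes were called. This was IL17RD, also called SEF, an inhibitor at the receptor, with 9.75 and 10.2 TPM in aNE and 61.3 and 66.1 TPM in pNE, a difference of 2.56 ± 0.08 (adjusted p = 2.89e-10). FLRT3, a membrane protein that binds FGF receptors, was 111 and 126 TPM in pNE_H against 24.2 and 24.7 TPM in aNE_H, and 12.7 and 13.8 TPM in pNE_M against 52.9 and 64.7 TPM in aNE_M. Its differences were 2.23 ± 0.12 in hindbrain and -2.06 ± 0.12 in midbrain medium, of opposite sign. SULF1, which removes sulfate groups from heparan sulfate, was 88.9 and 116 TPM in aNE_M against 6.47 and 8.04 TPM in pNE_M, a difference of -3.64 ± 0.19 (adjusted p = 2.04e-08). Of the 18 tested heparan sulfate genes, 4 were called between the origins in forebrain medium (1 higher, 3 lower), 2 in midbrain medium (both lower) and 5 in hindbrain medium (1 higher, 4 lower), where 7.77%, 5.74% and 6.83% of all tested genes were called.

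None of the 18 adaptor and RAS-ERK genes was called between pNE and aNE or between the origins in any day-4 medium, near the shares over all tested genes (3.85% at day 2, then 7.77%, 5.74% and 6.83% in forebrain, midbrain and hindbrain medium), and their medians there lay between -0.11 and 0.06, against -0.05 to -0.01 for all tested genes. The 16 genes that ERK induces did vary at day 2. Of these, 11 were called higher in pNE than in aNE and 1, EGR1, lower, with a median of 1.64, where 3.85% of all tested genes were called and their median was -0.01. Against hPSC, 1 of the 16 was called higher and 5 lower in aNE, with a median of -0.83. In pNE 3 were called higher and 1 lower than in hPSC, with a median of 0.39. Over all tested genes 13.5% and 12.9% were called in these comparisons, with medians of 0.06 and 0.05. SPRY4 was 77.5 and 86.0 TPM in pNE and 6.40 and 5.03 TPM in aNE (3.63 ± 0.10), ETV4 93.6 and 116 TPM against 10.7 and 12.2 TPM (3.09 ± 0.10), and DUSP6 274 and 238 TPM against 29.3 and 33.6 TPM (2.98 ± 0.08). EGR1 went the other way, at 2.81 and 3.31 TPM in pNE and 15.7 and 15.3 TPM in aNE (-2.03 ± 0.17). None of these groups overlapped. The pNE cells, not the aNE cells, had FGF2 protein in the day-2 medium, together with TTNPB and XAV939 in place of C59, so these agents cannot be told apart.

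At day 4, of the same 16 genes, 1 was called higher and 4 lower in cells from pNE than in cells from aNE in forebrain medium, 3 higher and 1 lower in midbrain medium, and 1 higher and 1 lower in hindbrain medium, against 7.77%, 5.74% and 6.83% of all tested genes called in either direction. SPRY4 was the member with the widest gap in forebrain medium, at 13.0 and 13.2 TPM in pNE_T and 88.2 and 90.6 TPM in aNE_T (-2.68 ± 0.10, adjusted p = 9.65e-10). DUSP6, which was not called there, was 274 and 289 TPM in pNE_T and 277 and 272 TPM in aNE_T. The responses from day 2 differed for 12 of the 16 in forebrain medium (all lower from pNE, against 7.14% of all tested genes called), 10 in midbrain medium (1 higher, 9 lower, against 7.02%) and 13 in hindbrain medium (1 higher, 12 lower, against 7.83%), and each of these contains the day-2 difference.

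**Figure D5:**
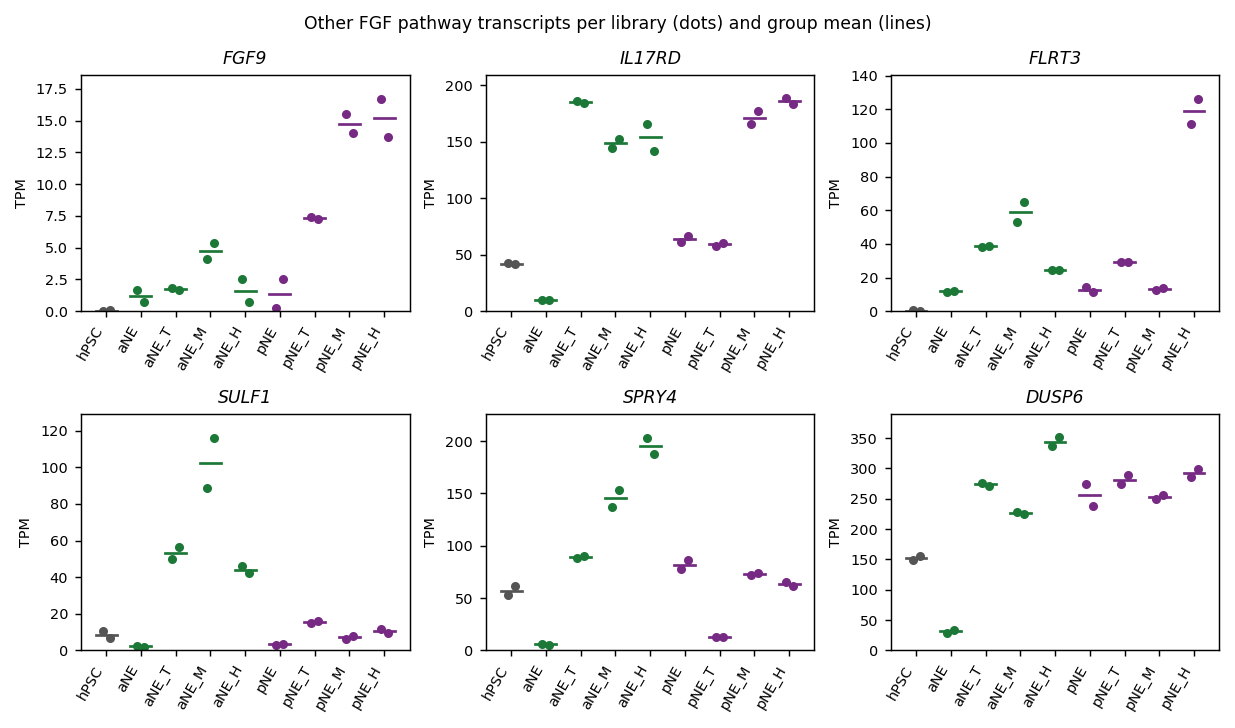
Levels in TPM (linear vertical axes, each panel with its own scale) of FGF9, IL17RD, FLRT3, SULF1, SPRY4 and DUSP6 in the 9 groups, with dots for libraries and lines for means of 2 (green, aNE and its derivatives; purple, pNE and its derivatives). SPRY4 and DUSP6 are low in aNE and high in pNE at day 2, and SULF1 is highest in aNE_M.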

How the data were processed

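Poly-A RNA of 18 samples of the H1 line was measured in 9 groups of 2, which GEO's labels call distinct biological replicates. The authors deposited a TPM table of genes by libraries. The submitters' processing notes name kallisto, Trim Galore, FastQC, bcl2fastq and deepTools, without roles or versions, and the build hg38. The annotation is not given in the sources used here. TPM keeps no read depth, so no counting interval was computed, and a value of 0 was read as listed at 0.

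A pseudocount of 1 was added before taking log2, and the 17033 genes reaching 1 TPM in 2 or more libraries were tested. The limma package (version 3.58.1, R 4.3.3) was run on all 18 libraries with a mean for each group, which leaves 9 residual degrees of freedom, with variances moderated with a trend on mean level, two-sided p-values and Benjamini-Hochberg adjustment over all tested genes. Calls needed an adjusted p under 0.05 and an absolute difference of at least 1. An interaction is the change from pNE to a pNE-derived group minus the change from aNE to the aNE-derived group in that medium. SD is between the 2 libraries of a group and SE is from limma. The fit was tested on simulated data. The FGF genes, pathway lists and marker lists were chosen with earlier results of these data known. In the pathway lists, named genes are called genes with the largest differences that reach 5 TPM in the higher group, besides FGFRL1, EGR1, FGF16 and the uncalled DUSP6 values, which were chosen after their values were seen. A gene that the search for similar patterns would name is not reported here. Promoters were taken from a RefSeq table and gene positions from GENCODE release 29. Alternatives were a pseudocount of 0.1, quantile normalization, median-ratio scaling, no filter on low values or one at 5 TPM, calls by adjusted p alone, a fit of the compared groups only, a replicate block, and each library left out in turn.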

Additional observations from a re-analysis of the deposited data

Results flagged for a closer look

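For 17 combinations of gene and medium, the day-2 to day-4 response from pNE differed from the response from aNE by limma's interaction test. Differences are on the log2(TPM + 1) scale. A negative value means a smaller rise, a larger fall or a fall in place of a rise from pNE. FGF17 differed in all 3 media, at -1.57 in forebrain, -1.96 in midbrain and -3.32 in hindbrain medium. FGF19 did so at -1.37, -4.14 and -2.81, and FGF18 at -1.35, -2.12 and -1.50 in the same order. FGF8 differed in forebrain medium at -3.22, a call lost with a pseudocount of 0.1 (-2.56, adjusted p = 0.21). The value of FGF3 in midbrain medium was -1.72, but this gene was tested only because its aNE_M libraries reached 1 TPM, so the value is a description and no support. FGFR4 was the only gene of the 10 with positive values in all 3 media past the threshold, at 3.90, 2.88 and 2.45. FGFR1 differed in hindbrain medium by 1.34. FGFR3 differed by 1.30 in midbrain medium and at -1.19 in hindbrain medium. The hindbrain value fell under the size for a call without the second pNE library (-0.998) or the first pNE_H library (-0.98). Plating density differed with origin at day 4 and cannot be told apart from it in any of these values.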

How the results depend on the processing

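Of the FGF genes, 109 differences were called over the 21 comparisons, and none of their values changed sign under any setting tried. Under the settings other than leaving out a library, 844 of 858 values stayed called and 14 values of 10 differences did not. Of these, 9 came from the fit of the compared groups only, which has fewer samples. That fit called 1 gene in place of 3 between pNE and aNE and 3 in place of 5 between aNE_H and aNE_M. A pseudocount of 0.1 gave 6 calls in place of 3 between pNE_T and pNE and 5 in place of 3 between pNE_M and pNE_T. Calls by adjusted p alone numbered 6 between pNE and aNE, 7 between pNE_T and pNE, 7 between pNE_M and pNE_T, and 6 in place of 2 between pNE_H and pNE_M. With 1 library left out, 485 of 504 values stayed called, and the count between pNE_H and pNE_T was 2 to 3 in place of 4. The filter at 5 TPM removed FGF3 and FGF18 and left all of the 95 other differences called. The cause of these changes was not tested. Over 36 pairs of groups, same-numbered libraries deviated with r between -0.0896 and 0.0762, so the numbers were not taken as pairs. With a replicate block, 109 of the 109 differences stayed called, and 3 genes were called between pNE and aNE, as without it. The read depth is unknown, so the precision of values near 0, as in several groups of FGF3, FGF8, FGF17, FGF18 and FGF19, cannot be given.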

Other observations

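The intracellular FGF homologous factors, which resemble FGFs in sequence, are not secreted and are known as partners of sodium channels, also varied between groups. FGF13 was 90.0 and 95.5 TPM in pNE_T against 25.9 and 24.9 TPM in aNE_T, a difference of 1.83 ± 0.09 (limma, adjusted p = 1.14e-08), and it lay between 7.29 and 35.7 TPM in the libraries of the other 7 groups. FGF12 was 21.7 and 44.0 TPM in aNE_M against 9.62 and 9.96 TPM in pNE_M, a difference of -1.57 ± 0.37 (adjusted p = 0.0104), and the groups did not overlap although the aNE_M replicates lay far apart. GPC3, a heparan sulfate proteoglycan of the cell surface, was 53.0 and 55.7 TPM in hPSC, 348 and 362 TPM in aNE and 157 and 165 TPM in pNE, so that it was lower in pNE than in aNE at -1.13 ± 0.07 (adjusted p = 2.04e-07). GPC6, of the same family, went the other way, at 16.1 and 17.4 TPM in pNE and 5.48 and 4.62 TPM in aNE (1.56 ± 0.13, adjusted p = 3.03e-06).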
